A study of Mus musculus with 7 samples.

Results

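The lactate and glucose transporter genes of mouse retinal pigment epithelium (RPE) were examined together with basigin and embigin, the membrane glycoproteins that escort lactate transporters to the cell surface. The 10 genes were taken by name from the 52740 gene identifiers of the count table: the monocarboxylate transporter genes Slc16a1, Slc16a3, Slc16a8, Slc16a6, Slc16a11 and Slc16a12, the chaperone genes Bsg (basigin) and Emb (embigin), and the facilitative glucose transporter genes Slc2a1 and Slc2a3. All 10 passed the filter on low counts that left 16990 genes to test.

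Polyadenylated RNA of RPE was sequenced from 4 wild type (WT) mice, 3 females and 1 male named F1, F2, F3 and M1, and from 3 mice lacking the autophagy gene Map1lc3b (LC3b-/-), the females F1 and F3 and the male M, all aged 24 months per the labels. Each mouse gave 1 library, none was pooled, and values per library are listed in the order F1, F2, F3 and M1 for WT and F1, F3 and M for LC3b-/-. WT mice were C57BL6/J and the knockout mice came from the strain B6;129P2-Map1Lc3btm1Mrab/J, a germline knockout, so strain background and the knockout cannot be told apart, and the mouse names carry a further number of unstated meaning that no WT mouse shares with a knockout mouse. RPE sheets were released with enzymes from eyecups without cornea, ciliary body and lens, and the labels call the material RPE cells with no purity given. Counts assigned to genes summed to between 24495952 and 35616134 per library, and levels are given as CPM, the counts scaled for library size with TMM factors. The targeted gene Map1lc3b lay between 104 and 130 CPM in WT and between 6.76 and 8.33 CPM in LC3b-/-, which fits the labels of all 7 libraries.

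RPE sits between the photoreceptors and the choroidal blood supply, and glucose reaches the outer retina across it. Photoreceptors release much of that glucose as lactate. In the RPE, monocarboxylate transporters carry lactate together with a proton: MCT1 (Slc16a1) on the apical membrane facing the photoreceptors, and MCT3 (Slc16a8), known almost only from RPE and choroid plexus, on the basolateral membrane facing the choroid. Both need basigin to reach the membrane. MCT4 (Slc16a3), the form typical of highly glycolytic cells, uses basigin as well, while embigin is the usual partner of MCT2. GLUT1 (Slc2a1) carries glucose across both faces of the RPE, and GLUT3 (Slc2a3) is best known from neurons.

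The start regions of the 4 most abundant of these genes are shown. Their mRNA levels moved together across the libraries and with the RPE markers described below, and shared control of these genes was not tested. Each line holds the 250 bases before the start of the canonical transcript, read 5′ to 3′ on the strand of the gene from the GRCm39 genome. The windows are chr15:79138965-79139214 (minus strand) for Slc16a8, chr3:104545561-104545810 (plus strand) for Slc16a1, chr10:79539893-79540142 (plus strand) for Bsg and chr4:118965658-118965907 (plus strand) for Slc2a1. Capitals mark a palindromic E-box (CACGTG) or a GC box (GGGCGG or its reverse complement).
Slc16a8: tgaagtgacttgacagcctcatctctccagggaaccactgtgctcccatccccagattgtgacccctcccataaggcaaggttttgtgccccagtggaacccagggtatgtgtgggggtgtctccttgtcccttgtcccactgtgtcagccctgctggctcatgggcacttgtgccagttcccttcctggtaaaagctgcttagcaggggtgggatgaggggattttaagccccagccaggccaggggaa
Slc16a1: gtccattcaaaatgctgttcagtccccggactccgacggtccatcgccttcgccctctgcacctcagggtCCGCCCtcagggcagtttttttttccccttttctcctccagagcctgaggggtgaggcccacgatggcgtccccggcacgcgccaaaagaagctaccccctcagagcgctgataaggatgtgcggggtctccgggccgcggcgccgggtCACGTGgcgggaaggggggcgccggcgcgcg
Bsg: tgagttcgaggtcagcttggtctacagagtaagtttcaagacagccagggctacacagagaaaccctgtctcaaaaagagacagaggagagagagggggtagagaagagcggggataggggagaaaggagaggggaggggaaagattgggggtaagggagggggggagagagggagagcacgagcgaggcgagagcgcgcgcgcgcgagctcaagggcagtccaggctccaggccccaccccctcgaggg
Slc2a1: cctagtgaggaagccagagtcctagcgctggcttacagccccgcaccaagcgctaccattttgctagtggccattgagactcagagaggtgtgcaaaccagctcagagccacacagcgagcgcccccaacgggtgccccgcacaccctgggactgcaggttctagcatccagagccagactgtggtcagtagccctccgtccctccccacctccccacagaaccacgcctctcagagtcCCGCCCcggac
In the window of Slc16a1 the E-box began 31 bases and the GC box 180 bases before the transcript start. Slc2a1 held a GC box 11 bases before its start. Neither motif was found in the windows of Slc16a8 and Bsg, so the 4 windows had no capitalised motif in common. Of the 10 genes, Slc16a1 and Slc16a6 held the E-box, against 6.26% of the windows of the same length at 21770 genes, and Slc16a1, Slc2a1, Slc2a3 and Slc16a11 held the GC box, against 36.3%. The core TAATCC bound by OTX2 and CRX was found in the window of Emb alone, against 7% of all windows, and the E-box CATGTG in none, against 10.5%. The hypoxia response core ACGTG lies inside the palindromic E-box, so the same 2 members, Slc16a1 and Slc16a6, held it, against 17% of all windows. No member held it outside the E-box. All motifs were searched on both strands, and a match is a description of letters, not of a bound site. The window of Slc16a8 lies within the span of Pick1, a gene on the other strand, and that of Slc16a1 overlaps an exon of the lncRNA Gm65697 on the other strand.

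In WT RPE, 4 of the genes were far more abundant than the others. Divided by the length of the canonical transcript, the mean WT level was 1715 CPM per kilobase for Bsg, which ranked 35 of the 16990 genes, and 762 for Slc16a8, which ranked 53. It was 351 CPM per kilobase for Slc2a1 (rank 109) and 171 for Slc16a1 (rank 283). These 4 genes thus stood above at least 98.3% of the genes tested. Slc16a6 followed at 23.7 CPM per kilobase. Emb at 5.46 and Slc16a11 at 5.14 lay near the middle of all genes, and Slc16a12 at 2.21, Slc16a3 at 2.06 and Slc2a3 at 1.06 lay below it. The order of the 4 abundant genes was the same in the mean of LC3b-/-, with 1041 CPM per kilobase for Bsg, 404 for Slc16a8, 212 for Slc2a1 and 80.2 for Slc16a1. Emb and Slc16a11 were not separable in WT, nor Slc16a12 from Slc16a3, nor Slc16a3 from Slc2a3, since their differences were smaller than the spread between mice.

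Lower mean levels in LC3b-/- were seen in 5 of the 10 genes, the lactate transporter genes Slc16a1 and Slc16a8, Slc16a6, basigin and the glucose transporter gene Slc2a1, and in each of these 5 the highest LC3b-/- library was under the lowest WT library. Across all genes, 10.3% were separated in that direction. Mean levels of the other 5 genes were higher in LC3b-/- with overlapping groups; 12% of all genes were separated upwards. With edgeR's quasi-likelihood test, adjusted over all 16990 genes, 0 of the 10 were differentially expressed (adjusted p under 0.05 and at least 1.5-fold), where the criteria passed in 0.235% of all genes. Without adjustment p was under 0.05 in 6, which are the 5 lower genes (10.6% of all genes) and Slc16a11, which was higher (13.5% of all genes, and 24.1% in both directions). DESeq2's Wald test called these same 6 at an adjusted p under 0.05, against 9.8% of all genes (3.06% lower and 6.74% higher), and limma's voom called 0. The median log2 fold change of the 10 was −0.23, and that of all genes tested 0.01. The median of the 10 was −0.52 without LC3b-/- F3 and −0.36 without LC3b-/- F1 or without WT F3. The biological coefficient of variation between mice was 0.398, and the p-values measure the spread between these 7 animals.

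**Figure D1:**
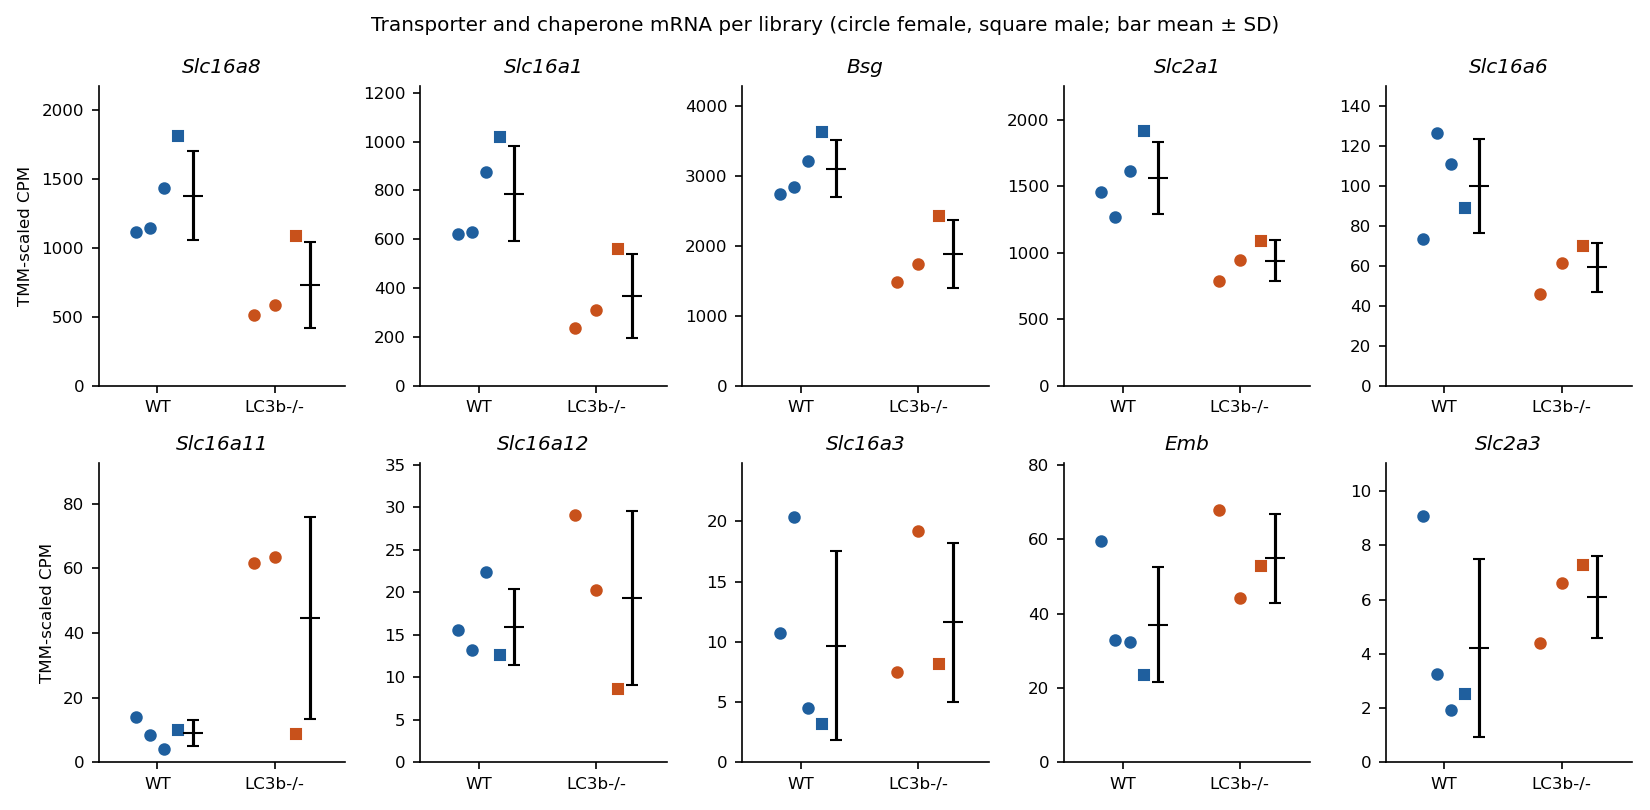
TMM-scaled level (CPM, vertical axes from 0) of the 10 genes in each library, WT in blue and LC3b-/- in orange, circles for females and squares for males, with the mean ± SD beside each group. In the first 5 panels the highest LC3b-/- library lies under the lowest WT library, and in the other 5 the groups overlap.

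The RPE lactate exporter MCT3, encoded by Slc16a8 (ENSMUSG00000032988; chromosome 15, 79135214 to 79138964, minus strand), measured 1117, 1148, 1436 and 1809 CPM in the WT libraries. In the LC3b-/- libraries it measured 514, 586 and 1090 CPM. The knockout females were lowest, while LC3b-/- M lay just under WT F1. Mean levels were 1378 ± 321 CPM in WT and 730 ± 314 CPM in LC3b-/- (SD, n = 4 and 3), a log2 fold change of −0.92 (standard error 0.32, edgeR adjusted p = 0.155, DESeq2 adjusted p = 0.0337). The gene lies wholly inside the span of Pick1 on the other strand, and whether the counting used the strand of the reads is not stated. Pick1 has 4026 counts over all libraries, against 224342 for Slc16a8.

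MCT1, the apical lactate transporter encoded by Slc16a1 (ENSMUSG00000032902; chromosome 3, 104545811 to 104565780, plus strand), measured 621, 629, 877 and 1017 CPM in the WT libraries, and 236, 309 and 562 CPM in the LC3b-/- libraries. It was the lower gene with the greatest difference, 2.13-fold, from 786 ± 195 to 369 ± 171 CPM. The log2 fold change was −1.09 (standard error 0.34, edgeR adjusted p = 0.129, DESeq2 adjusted p = 0.0149). As for Slc16a8, the male of each genotype had the highest level of its group.

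Basigin (Bsg, ENSMUSG00000023175; chromosome 10, 79540143 to 79547821, plus strand), the partner of both transporters, measured 2737, 2835, 3212 and 3625 CPM in the WT libraries. It measured 1489, 1734 and 2427 CPM in the LC3b-/- libraries. The groups did not overlap, and LC3b-/- M came nearest to WT. From 3102 ± 404 to 1883 ± 486 CPM the log2 fold change was −0.72 (standard error 0.24, edgeR adjusted p = 0.144, DESeq2 adjusted p = 0.0154).

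GLUT1, encoded by Slc2a1 (ENSMUSG00000028645; chromosome 4, 118965908 to 118996365, plus strand), measured 1457, 1266, 1613 and 1914 CPM in the WT libraries, and 786, 945 and 1092 CPM in the LC3b-/- libraries. All 3 knockout libraries lay below the lowest WT library, here WT F2. Mean levels were 1562 ± 274 and 941 ± 153 CPM, and the log2 fold change was −0.73 (standard error 0.21, edgeR adjusted p = 0.116, DESeq2 adjusted p = 0.00881).

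Slc16a6 (MCT7; ENSMUSG00000041920; chromosome 11, 109341680 to 109365928, minus strand), linked in liver to the export of ketone bodies, measured 73.5, 127, 111 and 89.0 CPM in the WT libraries. In the LC3b-/- libraries it measured 46.1, 61.6 and 70.4 CPM. Its pattern within WT differed from that of the genes above, since WT F2 and not WT M1 was highest, and WT F1 lay only just above LC3b-/- M. The log2 fold change was −0.75 (standard error 0.23, edgeR adjusted p = 0.122, DESeq2 adjusted p = 0.0312). Arsg and Amz2 overlap the gene on the other strand with 10776 and 4852 counts over all libraries, against 16840 for Slc16a6.

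RNA of RPE marker genes was lower in the same libraries. Of 15 markers, among them the visual cycle genes Rpe65, Rlbp1, Lrat, Rgr and Rdh5, 14 had a lower mean in LC3b-/-. In 7 of these the unadjusted p was under 0.05, against 10.6% of all genes in that direction. No marker was at 0 in every library. Rpe65 measured 2132 to 3968 CPM in WT, whereas Best1, another gene typical of RPE, did not exceed 1.71 CPM in any library. The median log2 fold change of the list was −0.73, close to those of the 5 lower transporter and chaperone genes. Its summed level was 34125, 32670, 41599 and 50456 CPM in the WT libraries and 15116, 17940 and 30426 CPM in the LC3b-/- libraries. The groups do not overlap, and the order of the libraries is close to that of Slc16a8. Of 5 melanocyte markers, some of which Schwann-type glia share, 4 also had a lower mean in LC3b-/-, 3 with an unadjusted p under 0.05 (list median −0.91), none at 0 in every library. Their summed level lay between 275 and 4620 CPM in WT, highest in WT F1, and between 221 and 309 CPM in LC3b-/-, with overlap. The pigment genes Tyrp1, Dct, Tyr, Pmel and Mlana in the RPE list are used by melanocytes too. The part of melanocytes in the levels of the 5 genes was not tested. In bulk RNA fewer RPE cells and less RNA of these genes per cell cannot be told apart.

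**Figure D2:**
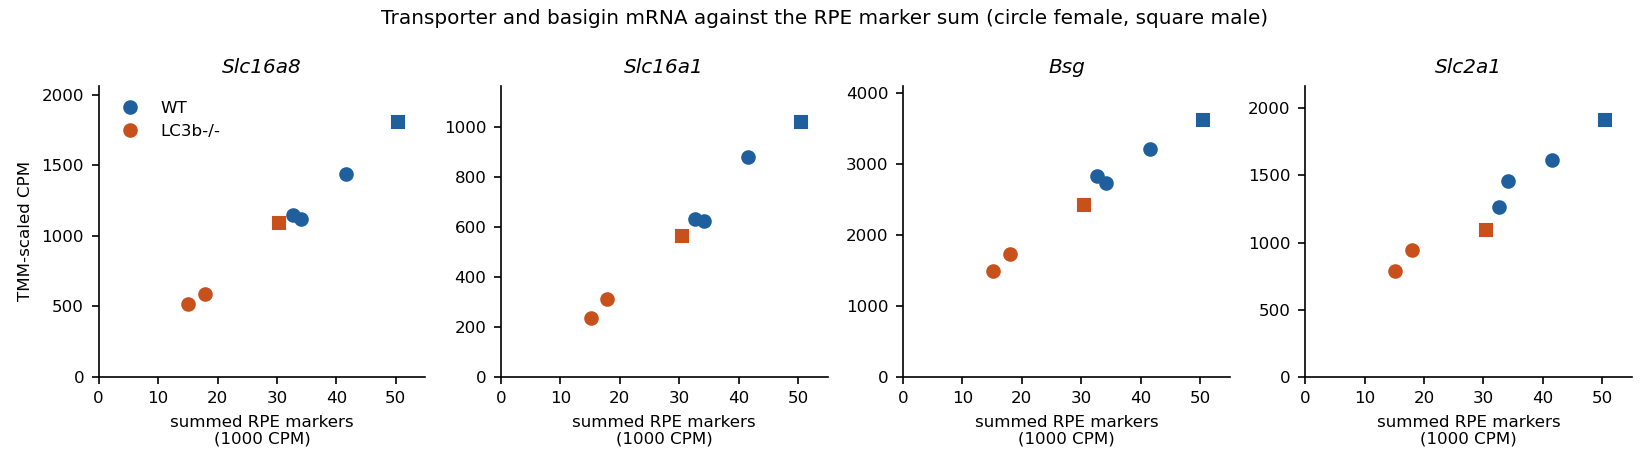
Level of Slc16a8, Slc16a1, Bsg and Slc2a1 (CPM, vertical axes) against the summed level of 15 RPE marker genes (1000 CPM, horizontal axes) in the 7 libraries, WT in blue and LC3b-/- in orange, circles for females and squares for males. In each panel the libraries lie close to a rising line, with LC3b-/- F1 and F3 at its lower end and WT M1 at its upper end.

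Set against the marker sum, the difference in Slc16a8 was smaller than the spread between mice. Per 1000 CPM of RPE markers, Slc16a8 measured 32.7, 35.1, 34.5 and 35.8 CPM in the WT libraries and 34.0, 32.7 and 35.8 CPM in the LC3b-/- libraries, with means of 34.6 ± 1.33 and 34.2 ± 1.58. Slc16a1 measured 19.7 ± 1.23 in WT and 17.1 ± 1.42 in LC3b-/- on this scale, with LC3b-/- M above WT F1. The ratio of basigin was 79.0 ± 6.23 in WT and 91.6 ± 10.3 in LC3b-/-, and that of Slc2a1 39.5 ± 2.14 and 46.9 ± 9.50. The groups overlapped for all 10 genes on this scale.

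The fit across all genes was also run with libraries scaled to the RPE markers in place of TMM. This scaling moved the median log2 fold change of all genes to 0.79, and 98.3% of the genes it called were higher in LC3b-/-, against 52.5% with TMM. Log2 fold changes then were −0.38 (standard error 0.20) for Slc16a1, −0.20 for Slc16a8, −0.04 for Slc16a6, 0.02 for Bsg and 0.04 for Slc2a1, with edgeR adjusted p-values from 0.140 to 0.925. The values of Bsg and Slc2a1 were thus smaller than their standard errors (0.17 and 0.18), and no member remained separated between the groups. Relative to the median of all genes, the 5 genes were lower under both scalings. A change of scaling shifts all genes by nearly the same amount, so it cannot test this distance.

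**Figure D3:**
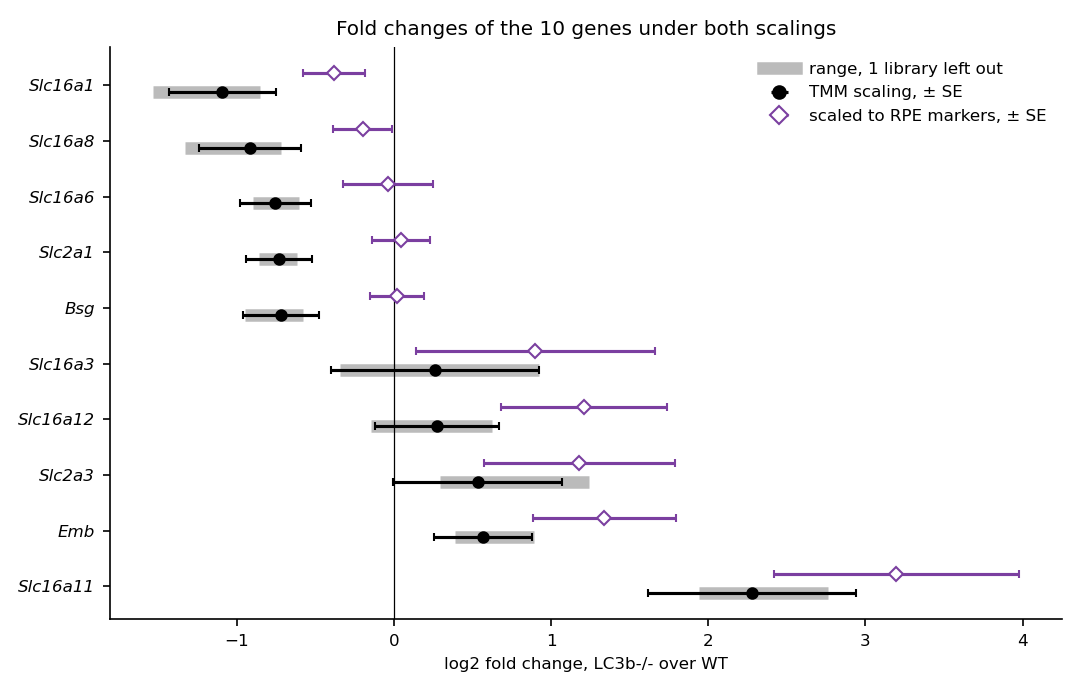
Log2 fold change of LC3b-/- over WT for the 10 genes (horizontal axis), with TMM scaling (black points ± standard error), the range when each library in turn was left out (grey bars) and after scaling to the RPE markers (open diamonds ± standard error). After scaling to the markers the 5 lower genes lie further right, with Slc16a1 lowest at −0.38, while the median of all genes is 0.79. Slc16a11 lies to the right under both scalings.

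Proportions among the lactate transporters are free of any scaling between libraries. By counts per kilobase, Slc16a8 gave 81.8%, 81.8%, 80.6% and 81.8% of the summed Slc16a1, Slc16a3 and Slc16a8 mRNA in the WT libraries, and 84.3%, 82.0% and 82.9% in the LC3b-/- libraries. Slc16a1 gave 17.9%, 17.6%, 19.3% and 18.1% in the WT libraries and 15.2%, 17.0% and 16.8% in the LC3b-/- libraries. Slc16a3, the MCT4 gene, gave 1.03% at most. MCT3 mRNA thus outweighed MCT1 mRNA in every library. The share of Slc16a8 was 1.57 points higher in LC3b-/- (0.959 points without LC3b-/- F1) with no overlap between the groups, and LC3b-/- F3 lay closest to WT. The ratio of Slc16a8 to Slc16a1 was 4.48 ± 0.21 in WT and 5.10 ± 0.38 in LC3b-/-. These differences are described and were not tested.

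Basigin mRNA exceeded the summed mRNA of its lactate transporters in every library. The ratio of transporter to basigin counts per kilobase was 0.499, 0.495, 0.555 and 0.610 in the WT libraries and 0.410, 0.412 and 0.541 in the LC3b-/- libraries. Both knockout females lay below all WT libraries, while LC3b-/- M lay within the WT range. Embigin mRNA was at most 0.0121 of basigin mRNA. That ratio was 0.0033 ± 0.0017 in WT and 0.0082 ± 0.0034 in LC3b-/-, with no overlap, although LC3b-/- M at 0.00581 was barely above WT F1 at 0.00579. GLUT1 made up 99.7% ± 0.26 of the summed Slc2a1 and Slc2a3 mRNA in WT and 99.3% ± 0.08 in LC3b-/-, with overlapping groups.

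**Figure D4:**
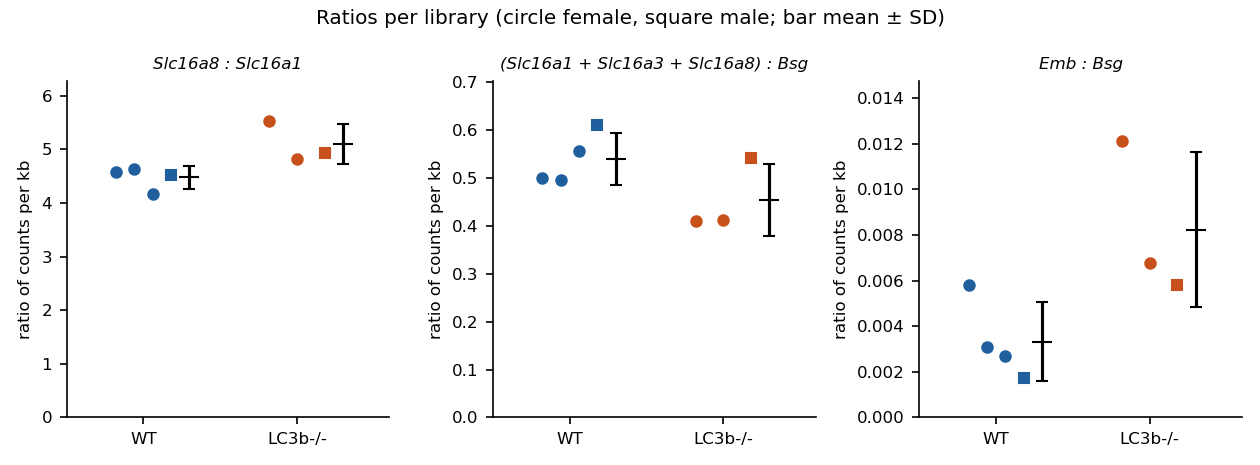
Ratio of Slc16a8 to Slc16a1, of the summed lactate transporters Slc16a1, Slc16a3 and Slc16a8 to Bsg, and of Emb to Bsg (counts per kilobase, vertical axes from 0) in each library, WT in blue and LC3b-/- in orange, circles for females and squares for males, with the mean ± SD beside each group. The groups overlap in the ratio of transporters to Bsg and do not in the other panels.

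Slc16a11 (MCT11; ENSMUSG00000040938; chromosome 11, 70103578 to 70107267, plus strand), a proton-linked pyruvate transporter, was the member with the greatest difference. It measured 14.0, 8.41, 4.27 and 10.1 CPM in the WT libraries, and 61.8, 63.4 and 8.77 CPM in the LC3b-/- libraries. Both knockout females thus lay far above every WT library, whereas the knockout male lay within the WT range. The log2 fold change was 2.28 (standard error 0.66, edgeR adjusted p = 0.115, DESeq2 adjusted p = 0.00441). Scaled to the RPE markers it was 3.20 (edgeR adjusted p = 0.0490), which met the criteria, as did 8.71% of all genes in that direction under that scaling. Without LC3b-/- M it was 2.76 (edgeR adjusted p = 0.0322), where 2.76% of all genes met the criteria. The likelihood ratio test of edgeR called it as well (adjusted p = 0.0135), along with 7.3% of all genes.

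In females alone (3 WT, 2 LC3b-/-) the log2 fold change of Slc16a11 was 2.81 (edgeR adjusted p = 0.0744). The genotype difference of the males minus that of the females was −3.01 on the log2 scale (standard error 0.89, edgeR unadjusted p = 0.0159, adjusted p = 0.998). With 1 male per genotype the spread in this test comes from the females alone, and each male is assumed to vary like them. Sex, the single animal and the further number in the mouse name, which differs between the knockout male and the knockout females, cannot be told apart. Slc16a13 overlaps Slc16a11 on the other strand with 982 counts over all libraries, against 5417. Its log2 fold change was 0.35 (standard error 0.30, edgeR adjusted p = 0.503).

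RNA of ocular surface epithelium was high in the same knockout females. The summed level of 7 markers, among them the keratin genes Krt5, Krt13 and Krt14, was 587, 444, 119 and 2071 CPM in the WT libraries and 14648, 3483 and 2004 CPM in the LC3b-/- libraries. All 7 had a higher mean in LC3b-/-, and none was at 0 in every library. In 4 the unadjusted p was under 0.05, against 13.5% of all genes in that direction. LC3b-/- F1 held far more of this RNA than LC3b-/- F3, while Slc16a11 was nearly equal in both, and WT M1 held as much as LC3b-/- M. The part of these cells in the level of Slc16a11 was not tested.

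**Figure D5:**
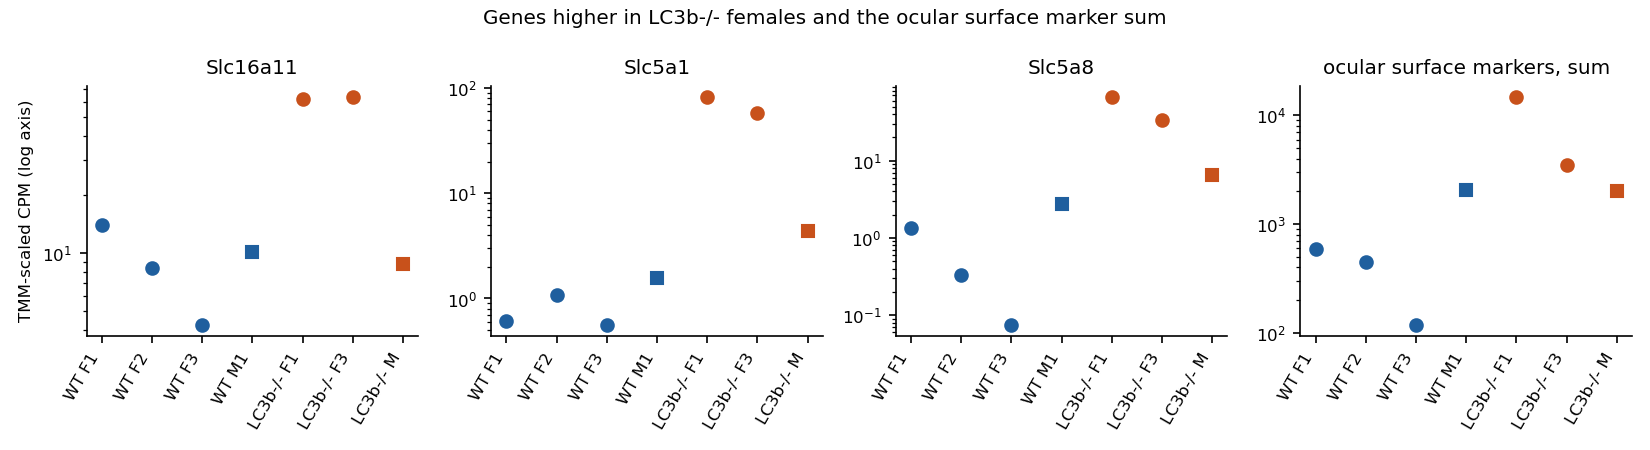
Level of Slc16a11, Slc5a1 and Slc5a8 and the summed level of 7 ocular surface markers (CPM, logarithmic vertical axes) in each library, WT in blue and LC3b-/- in orange, circles for females and squares for males. LC3b-/- F1 and F3 are highest in every panel, and LC3b-/- M is within the WT range for Slc16a11 and the marker sum.

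The remaining members were scarce and their groups overlapped. Slc16a12 (MCT12; ENSMUSG00000009378; chromosome 19, 34642642 to 34724858), a creatine transporter, ranged from 12.6 to 22.4 CPM in WT and from 8.62 to 29.0 CPM in LC3b-/-, with LC3b-/- F1 highest and LC3b-/- M lowest of all 7. Its log2 fold change was 0.27 (standard error 0.40, edgeR adjusted p = 0.703) and became −0.15 without LC3b-/- F1. Slc16a3 (ENSMUSG00000025161; chromosome 11, 120838846 to 120851694) ranged from 3.15 to 20.4 CPM in WT and from 7.49 to 19.2 CPM in LC3b-/-. Its log2 fold change of 0.26 (standard error 0.66, edgeR adjusted p = 0.839) had no stable sign, at −0.34 without LC3b-/- F3 and −0.03 without WT M1. Csnk1d overlaps Slc16a3 on the other strand with 26111 counts, against 2288.

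Emb (ENSMUSG00000021728; chromosome 13, 117345072 to 117414817) measured 59.4, 33.0, 32.3 and 23.5 CPM in the WT libraries and 67.7, 44.1 and 52.9 CPM in the LC3b-/- libraries. Only WT F1 kept the groups from separating. The log2 fold change was 0.57 (standard error 0.31, edgeR adjusted p = 0.308), and 0.89 without WT F1 (edgeR adjusted p = 0.0724). Slc2a3 (ENSMUSG00000003153; chromosome 6, 122704768 to 122778599) ranged from 1.95 to 9.07 CPM in WT and from 4.39 to 7.30 CPM in LC3b-/-, again with WT F1 highest. Its log2 fold change was 0.53 (standard error 0.54, edgeR adjusted p = 0.573). It was 1.24 without WT F1 (edgeR adjusted p = 0.0794), 0.29 without WT F3 and 0.35 without WT M1. Summed endothelial markers, of which 7 of 7 had a higher mean in LC3b-/-, lay between 185 and 607 CPM in WT, highest in WT F1, and between 733 and 777 CPM in LC3b-/-. Their part in the levels of Emb and Slc2a3 was not tested.

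The genes most alike to the abundant transporters over the 7 libraries were found by Pearson's r of log2 CPM among 9906 genes with a mean of at least 10 CPM. For Slc16a8 these were Atp6v0c, a subunit of the vacuolar proton pump, Tmem98, Lmbrd1, which serves lysosomal cobalamin export, Chp2 and Metrn, with r of 0.998 or more. Of the members, Slc16a1 stood at r = 0.995, Bsg at 0.991, Slc2a1 at 0.951, Slc16a6 at 0.770 and Slc16a11 at −0.89, without a rank among all genes. For Slc16a1 the most alike were Rgr, the opsin-like receptor of the RPE that is also among the markers, Cspg5, Tmem98, 4833439L19Rik and Atraid, all with r of 0.998. For Slc2a1 they were Srr (serine racemase), Pxmp4, Acbd5, Dtx1 and Slc5a5, with r from 0.989 to 0.996. The 7 points share the difference between the groups and the RPE marker level, so these values describe likeness across these libraries and are given without a test.

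Other genes of the pathway were read from lists of known function. In each of the 9 lists edgeR called 0 genes, against 0.235% of all genes. Of the other Slc16 genes 7 of 8 were tested, 3 lower and 4 higher, none with an unadjusted p under 0.05. Slc16a4 had the smallest p among them (log2 fold change −0.34, standard error 0.15, edgeR adjusted p = 0.217). Slc16a9, with a mean of 239 CPM in WT, was lower by more with overlapping groups (−0.77, standard error 0.35, edgeR adjusted p = 0.228). Slc16a7, which encodes MCT2, the usual partner of embigin, lay at 0.19 (standard error 0.31). Of the other Slc2 genes 8 of 10 were tested, 5 lower and 3 higher, and Slc2a9, a urate transporter, had an unadjusted p under 0.05 (log2 fold change 1.54, edgeR adjusted p = 0.112, DESeq2 adjusted p = 0.0194) at 0.786 to 1.79 CPM in WT. Mpc1 and Mpc2, which form the mitochondrial pyruvate carrier, were both lower, with −0.41 (standard error 0.16, edgeR adjusted p = 0.185) for Mpc1. Of 3 lactate dehydrogenase genes tested none had an unadjusted p under 0.05, and Ldhb, the subunit favouring lactate use, came nearest at −0.41 (standard error 0.18, edgeR adjusted p = 0.212).

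The sodium-coupled carriers showed the greatest differences in these lists. Slc5a1 (SGLT1, which takes up glucose with sodium) measured 0.615, 1.08, 0.562 and 1.58 CPM in the WT libraries and 81.7, 57.7 and 4.34 CPM in the LC3b-/- libraries. The groups did not overlap (12% of all genes were separated upwards), and the knockout females were far above the male, as for Slc16a11. Its log2 fold change was 5.65 (standard error 0.94, edgeR adjusted p = 0.0729, DESeq2 adjusted p = 8.99e-07). Slc5a8 (SMCT1, a sodium-coupled lactate carrier), the only other gene of this list that was tested, followed the same order of knockout libraries at 66.0, 33.2 and 6.47 CPM, against at most 2.77 CPM in WT (log2 fold change 4.95, edgeR adjusted p = 0.0942, DESeq2 adjusted p = 0.00237). The ocular surface markers given above were high in the same libraries, and their part in these levels was not tested.

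In the list of glucose phosphorylation and GLUT1 control, 1 of 6 genes was lower and 5 were higher (median log2 fold change 1.08). In edgeR 3 of the higher genes had an unadjusted p under 0.05, against 13.5% of all genes. DESeq2 called 3 of the list, against 9.8% of all genes. Arrdc4, an arrestin-like protein that lowers glucose uptake, had the smallest p. It measured 3.15 to 8.90 CPM in WT and 12.1 to 44.5 CPM in LC3b-/- (log2 fold change 2.10, standard error 0.49, edgeR adjusted p = 0.0951, DESeq2 adjusted p = 0.000703). Txnip, the related protein that promotes internalisation of GLUT1, was picked out after its values were seen, with 32.2 to 88.9 CPM in WT and 116 to 155 CPM in LC3b-/- (log2 fold change 1.06, standard error 0.32, edgeR adjusted p = 0.120, DESeq2 adjusted p = 0.0285). In both genes every LC3b-/- library lay above every WT library, as in 12% of all genes. Slc2a1 was lower with TMM scaling but not after scaling to the RPE markers (log2 fold change 0.04). A link between these genes and Slc2a1 was not tested. Of the 5 genes of the basigin family and its ligands none had an unadjusted p under 0.05, and the one with the smallest p was Nxnl1, which encodes a rod-derived cone viability factor that binds basigin, at −1.34 (standard error 0.82, edgeR adjusted p = 0.353), with a range of −2.04 to −0.56 when 1 library was left out. Nxnl1 was highest in WT F2 at 136 CPM, as were the summed photoreceptor markers, 10 of 10 with a lower mean in LC3b-/-, which lay between 44.6 and 17856 CPM in WT and between 46.2 and 6181 CPM in LC3b-/-. Their part in the level of Nxnl1 was not tested.

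Of 10 genes that handle the protons and bicarbonate moved with lactate, 7 were lower and 3 higher, 2 and 1 of them with an unadjusted p under 0.05, and DESeq2 called 2. Slc4a5, a sodium bicarbonate cotransporter, had the smallest p, with 762 to 1157 CPM in WT and 446 to 783 CPM in LC3b-/- (log2 fold change −0.71, standard error 0.25, edgeR adjusted p = 0.156). Among 10 hypoxia-inducible genes other than the members, 4 were lower and 6 higher, 1 and 3 of them with an unadjusted p under 0.05, and DESeq2 called 1. Egln3, an oxygen-sensing prolyl hydroxylase, had the smallest p and was again highest in LC3b-/- F1 and F3, at 175 and 77.9 CPM, against 20.6 CPM in LC3b-/- M and 6.25 to 30.2 CPM in WT (log2 fold change 2.61, standard error 0.76, edgeR adjusted p = 0.115). The median log2 fold changes of these lists were −0.56 and 0.13. Over all genes, 10.6% were lower and 13.5% higher with an unadjusted p under 0.05 in edgeR, and DESeq2 called 9.8%.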

How the data were processed

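RNA of RPE from 7 mice was sequenced with 100-base single reads after a stranded library preparation from polyadenylated RNA. The authors estimated reads per transcript with salmon 1.9.0 against GENCODE vM26 (GRCm39) and summed them to genes with tximeta 1.16.1; the deposited values are these estimated counts as whole numbers with no scaling. Whether strand was used in counting, and any trimming, are not given in the sources used here.

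Symbols, coordinates and canonical lengths came from GENCODE vM39 of the same build, which matched 51721 of 52740 identifiers. Genes were tested with edgeR 4.0.16 under R 4.3.3 (filterByExpr, TMM, quasi-likelihood test of LC3b-/- against WT, Benjamini-Hochberg over 16990 genes). A gene was called when it differed by at least 1.5-fold (0.585 on the log2 scale) with an adjusted p under 0.05. Standard errors are of the log2 fold change, and log2 CPM used a prior count of 2. Totals of 24495952 to 35616134 counts keep counting error small against the spread between mice for all but the scarcest genes. The code was tested on simulated data.

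Alternatives were DESeq2 1.42.0, limma 3.58.1 voom with quality weights, the edgeR likelihood ratio test, and other scalings and filters. Others were sex as a covariate, females only, a replicate block, each library left out, other fold thresholds and other gene lengths for ratios. A last alternative added the counts of all genes with a transcript sharing at least 95% identity over at least 100 bases (BLAST 2.17.0). Of the pathway lists, the gene with the smallest p was named, together with genes set beside a member of their family. Promoter windows were read with Python 3.11.15. The members and lists were chosen with earlier results of these data known. Protein sequences were not used here, and 1 gene of the pathway lists is not reported here.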

Additional observations from a re-analysis of the deposited data

Results flagged for a closer look

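The share of Slc16a8 in the lactate transporter mRNA of WT had 1 library far from the others. It was 80.6% in WT F3, while WT F1, F2 and M1 lay together at 81.8%, so that the gap took 0.976 of the whole WT range, above the limit of 0.829 for 4 libraries (Dixon's test). The share of Slc16a1 in WT F3 was correspondingly the highest, at 19.3%. Of 17 groups of values examined in this way it was the only one beyond the limit. Chance alone puts about 1 in 20 such groups beyond it, so 1 among 17 is about what chance gives.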

How the results depend on the processing

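The number of the 10 genes called moved from 0 to 6 with DESeq2, to 1 with the edgeR likelihood ratio test and to 1 after scaling to the RPE markers, in both cases Slc16a11. With 1 library left out it ran from 0 to 1, and LC3b-/- M was the library whose removal gave the 1. It stayed at 0 with limma's voom, DESeq2's size factors in edgeR, library size alone, either filter, either fold threshold, sex as a covariate and females only, and with the mouse number as a replicate block, which called 0. The block joined WT F1, WT M1 and LC3b-/- F1 under number 1, and WT F3 and LC3b-/- F3 under number 3. Deviations of LC3b-/- F1 from its group mean correlated at 0.15 with those of WT F1 and 0.53 with those of WT M1. For LC3b-/- F3 the correlation was 0.24 with WT F3 and 0.46 with WT F2, which has another number. The numbers were not taken as pairs. Over all genes the block called 157 against 40. Over all genes DESeq2 called 1831, the likelihood ratio test 1240 and the RPE scaling 1505, sex as a covariate 197, limma's voom 124, females only 96 and no filter 78. Leaving out 1 library gave 11 (without LC3b-/- F3) to 485 (without LC3b-/- M).

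After scaling to the RPE markers the median of the 10 was 0.47 on the log2 scale, Bsg stood at 0.0207 and Slc2a1 at 0.0449 (both lower with TMM), and 0 genes were separated between the groups. Another alternative added to a member the whole counts of every gene with a transcript sharing a short stretch (at most 427 bases). The sum for Slc2a3, with 1127 counts over all libraries, thus took in Ogdh with 64067. For Slc16a6, 334 genes share such a stretch, not all of them in the count table. Log2 fold changes of the sums were −0.18 for Slc16a3, 0.0203 for Slc16a6, −0.16 for Emb and −0.10 for Slc2a3, opposite in sign to the member alone. These sums mostly count other genes and say little about the members. Leaving out 1 library gave −0.34 (without LC3b-/- F3) to 0.92 (without WT F2) for Slc16a3 and −0.15 (without LC3b-/- F1) to 0.62 (without LC3b-/- M) for Slc16a12. The cause was not tested. Without division by length the share of Slc16a8 differed by 2.46 points in place of 1.57. The genotype by sex interaction passed for 0 members under both scalings tried.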
